A study of Mus musculus with 6 samples.

Results

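The genes described here are 10 members of the IL-6, IL-12 and IL-10 cytokine families and of the IL-10 receptor, taken by name from a table of 21780 mouse genes. They are Il6 and Osm of the IL-6 family, the subunit genes Il12a, Il12b, Il23a, Il27 and Ebi3 of the IL-12 family, Il10, and the receptor genes Il10ra and Il10rb. RNA was sequenced from CD45+CD11b+ cells, a gate that holds macrophages, monocytes, granulocytes and some dendritic cells, sorted from the pancreas of wild-type C57BL/6 mice. The mice were 6 to 8 weeks old, of both sexes, and the sex behind each library is not given. They had received PBS or 1 mg of WGP, whole glucan particles of yeast β-glucan, by intraperitoneal injection 7 days earlier, with 3 libraries in each group. The study describes each sample as an independent animal of 1 experiment, so the comparison shows how the 10 genes differed between mice of that experiment.

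IL-6 and oncostatin M act through receptors that share the signal-transducing chain gp130 and activate JAK kinases and STAT3. The IL-12 family is built from pairs of subunits. Il12b encodes p40, which pairs with p35 (Il12a) as IL-12 and with p19 (Il23a) as IL-23, while Ebi3 pairs with p28 (Il27) as IL-27 and with p35 as IL-35. IL-10, made by macrophages and other leukocytes, signals through a ligand-binding chain (Il10ra) and a shared chain (Il10rb), activates STAT3 and is known for holding back the production of IL-6, IL-12 and other inflammatory cytokines. Many cytokine mRNAs are short-lived, because AU-rich elements in their 3′ UTRs are bound by proteins that speed or slow their decay.

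The promoter windows of Il6 and Ebi3 are shown as those of a member that rose and of one that was not called in the comparison below, a choice made on that outcome. The windows hold 250 bases before and 50 bases from the annotated start, from RefSeq on GRCm38.p6, whose table held 4 of the 10 members. Capitals mark matches on either strand to a κB motif (GGGA, any 2 bases, TTCC) or a C/EBP motif (ATTGC, any 2 bases, AAT).
Il6 promoter, chr5:30012864-30013163, plus strand: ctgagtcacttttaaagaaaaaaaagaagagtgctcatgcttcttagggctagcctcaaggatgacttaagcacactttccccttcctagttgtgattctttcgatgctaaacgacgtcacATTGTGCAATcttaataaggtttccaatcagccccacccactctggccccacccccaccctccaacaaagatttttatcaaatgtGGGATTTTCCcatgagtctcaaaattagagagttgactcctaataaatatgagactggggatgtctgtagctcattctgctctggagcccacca
Ebi3 promoter, chr17:55952373-55952672, plus strand: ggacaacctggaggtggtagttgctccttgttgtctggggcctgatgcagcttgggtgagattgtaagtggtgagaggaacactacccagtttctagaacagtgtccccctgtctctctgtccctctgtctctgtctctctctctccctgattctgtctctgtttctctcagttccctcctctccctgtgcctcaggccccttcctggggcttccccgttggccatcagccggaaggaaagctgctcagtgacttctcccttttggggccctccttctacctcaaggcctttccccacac
The Il6 window holds a κB match from position -44, a C/EBP match from -129 and an AP-1 match (TGANTCA, not capitalised) from -249, each counted from the start site and none overlapping another. The Ebi3 window holds none of these and has a match to the PU.1 core GAGGAA from -176. Of the other members in the table, neither of which was called, Il12b has matches to the PU.1 core from -143 and -219 and none to the other motifs, and Il12a has no match in either of its 2 windows. Of 32851 windows of this length 1.47% hold the κB motif, 0.588% the C/EBP motif, 7.81% the AP-1 motif and 28.3% the PU.1 core. The matches are letters in a window and were not measured as bound sites.

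A larger share of the members than of all genes held AU-rich letters in the 3′ UTR, which was not tested. The heptamer TATTTAT was found in 8 of 10 members, and not in Ebi3 or Il10rb, against 25.78% of 20336 genes with a 3′ UTR and 19.77% of the 10638 genes whose 3′ UTR lay in the members' range of 245 to 1693 bases. The shorter ATTTA was found in 10 of 10 members against 62.40% of all genes. The sites of the genes with the widest differences between the groups are shown with 9 bases on each side as DNA letters, with the heptamer and any copy overlapping it in capitals.
Il6 site: tatgattgaTATTTATtatttttat
Il27 site 1: cttaccagaTATTTATttcttggat
Il27 site 2: tttcttggaTATTTATTTATtttta
Il27 site 3: gaaatggttTATTTATtgtttcact
Il10 site 1: tctccgaaaTATTTATtacctctga
Il10 site 2: ttcccattcTATTTATtcactgagc
Il10 site 3: attttacagTATTTATtatttttaa
Il10 site 4: ccagtttgtTATTTATaaccaccta
The heptamer was found in members that rose, in Il10, which fell, and in members that were not called, such as Il12a and Il23a. Its part in the differences was not tested.

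The libraries held 35334645 to 40580936 counts in the PBS group and 38240913 to 43341834 in the WGP group. Levels are CPM scaled by TMM factors, which correct library totals for differences in composition. The counts carry no molecular identifiers. The most frequent low count of a library was read from a smoothed distribution of its counts, with the very lowest counts left out of the search. It lay between 17 and 43, or 0.461 to 1.12 CPM. Smaller counts also occurred, so it is an approximate step. A member at 1 or 2 CPM rests on very few such steps. Calls were made in edgeR's quasi-likelihood test over 14429 protein-coding genes, and needed an adjusted p (Benjamini-Hochberg) no higher than 0.05 together with a log2 fold change of 1 or more in either direction. A gene that met the adjusted p, with or without the fold change, is said to pass. Of 7 general myeloid genes, Ptprc (CD45) and Itgam (CD11b) among them, 5 passed upwards, and their summed level was 10037 to 16038 CPM in the PBS and 22982 to 24541 CPM in the WGP libraries. Of 10 genes of tissue-resident macrophages, Lyve1, Folr2, Cd163 and Timd4 among them, 8 passed downwards, with sums of 9126 to 18951 against 3422 to 5515 CPM. Of 8 genes of Ly6C-high monocytes 4 passed upwards and 1 downwards (2995 to 6466 against 6533 to 8195 CPM). All 5 B cell genes and all 6 acinar cell genes passed downwards, from 361 to 2414 and 1022 to 4331 CPM in the PBS libraries to 86.8 to 169 and 299 to 516 CPM in the WGP libraries. WGP replicate 2 stood apart with 1431 CPM of 5 fibroblast genes, against 29.7 to 159 CPM in the other libraries (none of the 5 passed), and PBS replicate 1 held the highest B cell sum. None of 6 neutrophil genes passed (837 to 3434 against 1085 to 1304 CPM), and of 8 dendritic cell genes 1 passed downwards (341 to 424 against 277 to 407 CPM). Neither the 4 T cell genes in the table (0.180 to 3.67 against 4.50 to 29.5 CPM) nor the 3 tested of 5 mast cell and basophil genes (1.00 to 13.3 against 0 to 0.624 CPM, Mcpt4 and Cpa3 at 0 throughout) passed, while 1 of 5 NK cell genes (35.0 to 155 against 26.8 to 39.2 CPM) and 1 of 5 eosinophil genes (44.3 to 65.5 against 19.6 to 45.1 CPM) passed downwards. Of 4 endothelial genes 1 passed upwards (4.42 to 12.2 against 22.3 to 39.4 CPM), and of 4 mesothelial genes none (1.21 to 10.1 against 1.17 to 51.8 CPM). The highest T cell sum (29.5 CPM) and mesothelial sum (51.8 CPM) were those of WGP replicate 2. The other WGP libraries held at most 5.62 and 3.98 CPM. In these bulk samples fewer cells of a type and less RNA per cell cannot be told apart.

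**Figure D1:**
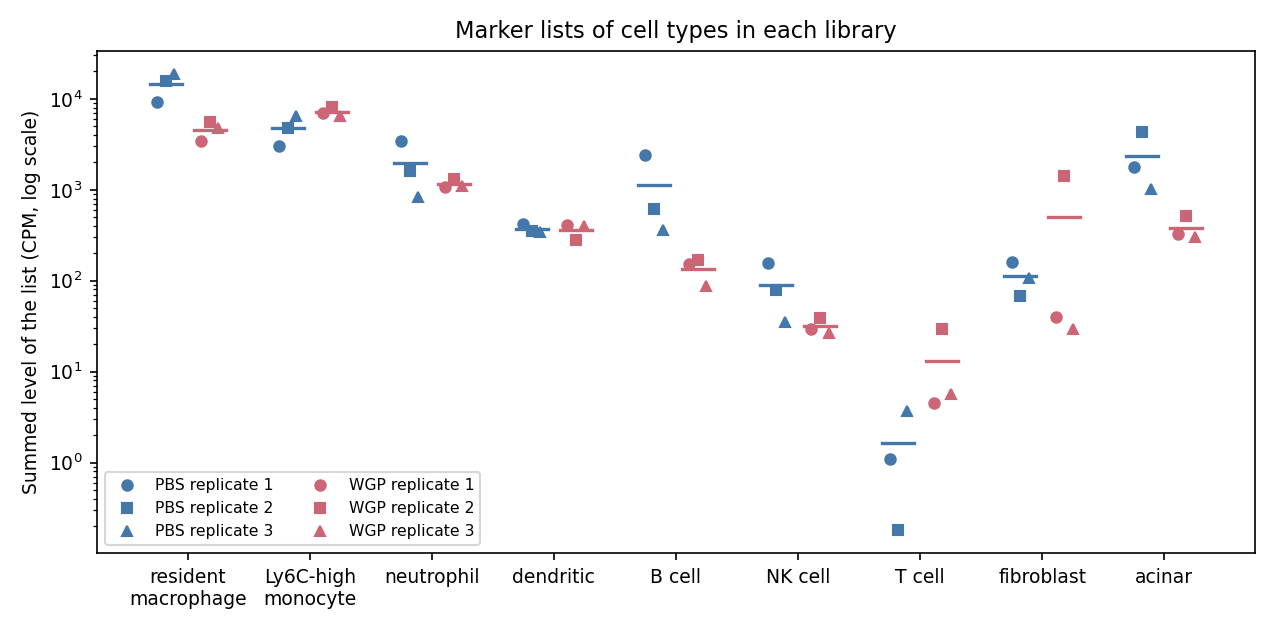
Summed level of 9 lists of cell type markers in each library, in TMM-scaled CPM on a log scale. Each symbol is a library and each line a group mean (n = 3). The resident macrophage, B cell and acinar sums lay lower in all WGP libraries, and WGP replicate 2 stood at 1431 CPM of fibroblast genes.

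The 10 members did not move together. Il27, Il6 and Osm rose in the WGP libraries, Il10 fell, and the other 6 were not called. All 10 passed the filter of at least 10 normalized counts over the 6 libraries. The members and the lists of pathway and marker genes were chosen with earlier results of these data known, so their shares are a description. By both thresholds 4 of 10 members were called, against 9.49% of all genes tested, of which 3 were higher, against 4.53%, and 1 was lower, against 4.96%. At the adjusted p alone Il10ra joined them, so that 5 passed, against 14.4% of all genes, 4 of them upwards (7.54% of all genes) and 1 downwards (6.81%). In 6 members the 3 WGP libraries all lay on the same side of the 3 PBS libraries, against 32.0% of all genes. The median log2 fold change of the members was 0.75, beside -0.05 over all genes tested.

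**Figure D2:**
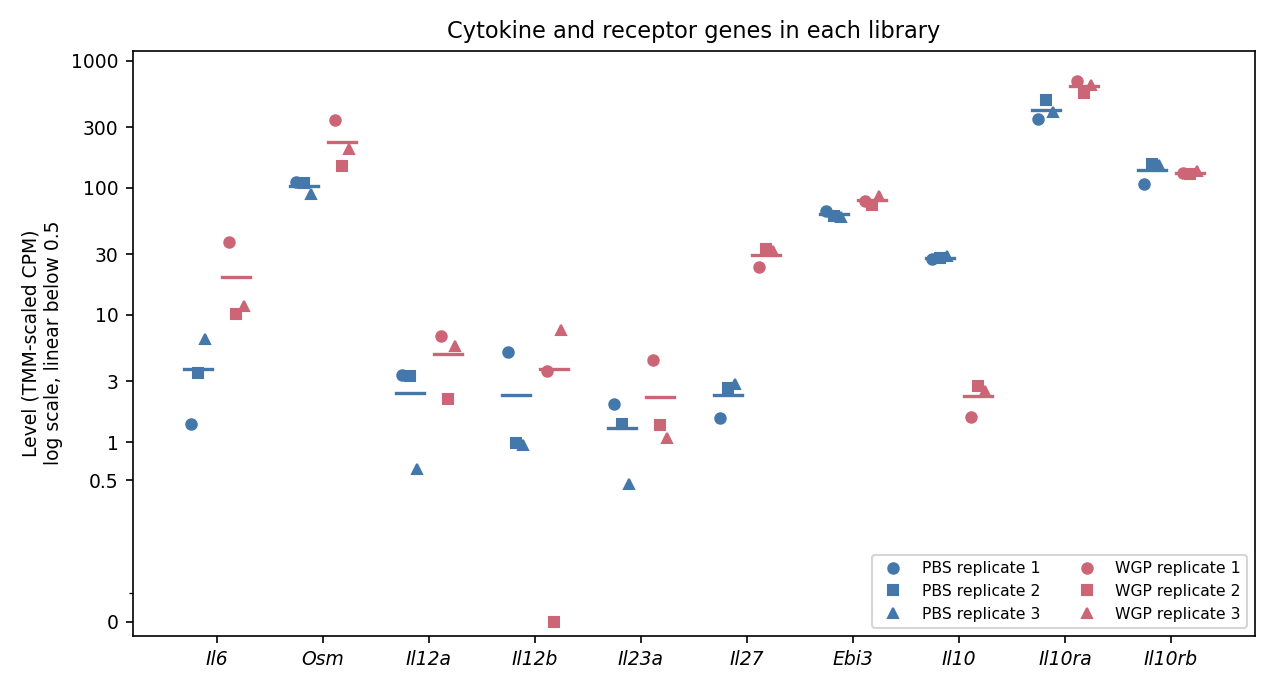
Level of the 10 genes in each library, in TMM-scaled CPM on an axis that is logarithmic above 0.5 CPM and linear below. Each symbol is a library and each line a group mean (n = 3). Il10 lay between 27.6 and 29.3 CPM in the PBS libraries and at 2.75 CPM or less in the WGP libraries, while the symbols of Il12a, Il12b, Il23a and Il10rb of the groups overlap.

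Il6 (ENSMUSG00000025746, chromosome 5, 30013114 to 30019981 of GRCm38, plus strand) encodes the cytokine that drives the acute phase response and acts on lymphocytes and tissue cells. It stood at 1.38, 3.52 and 6.48 CPM in the PBS libraries and at 37.3, 10.1 and 11.8 CPM in the WGP libraries. The groups did not overlap, yet each spread widely, with the highest library 4.70 times the lowest in the PBS group and 3.69 times in the WGP group, and WGP replicate 1 stood well above the other 2 WGP libraries. Its counts came to 1.23 times the most frequent low count in PBS replicate 1 and to 80.9 times in WGP replicate 1. Its log2 fold change of 2.38 (SE 0.65) had an adjusted p of 0.0348 in edgeR. Without WGP replicate 1 it was smaller, at 1.53, and was not called (adjusted p = 0.226 in edgeR). It was also not called with limma-voom (0.118), with the replicate number as a block (0.0895), without PBS replicate 1 (0.0569) or without PBS replicate 2 (0.116), in a range over 13 alternatives from 0.00428 to 0.226. In these 4 fits the log2 fold change was 2.31, 2.25, 1.98 and 2.33.

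Osm (ENSMUSG00000058755, chromosome 11, 4236420 to 4241026, plus strand) encodes oncostatin M, a product of activated myeloid cells that acts mainly on fibroblasts, endothelium and epithelium. It stood at 111, 109 and 88.9 CPM in the PBS libraries and at 344, 147 and 202 CPM in the WGP libraries. Every WGP library lay above every PBS library, and WGP replicate 1 was again the highest. Osm rose 2.24-fold, a log2 fold change of 1.17 (SE 0.27, adjusted p = 0.0158 in edgeR). Without WGP replicate 1 its log2 fold change was 0.76 (adjusted p = 0.0407 in edgeR), under the fold change threshold, and without PBS replicate 2 or PBS replicate 3 its adjusted p was 0.0562 and 0.0563, in a range over 13 alternatives from 0.000469 to 0.0563. Lif, which encodes another ligand that signals through gp130, was at 31.0, 13.5 and 10.4 CPM in the PBS libraries and at 14.4, 5.79 and 8.43 CPM in the WGP libraries, and did not pass (log2 fold change -0.94, adjusted p = 0.255 in edgeR; -0.33 without PBS replicate 1).

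Of the 5 IL-12 family subunits Il27 was called and the other 4 were not. Il27 (ENSMUSG00000044701, chromosome 7, 126589010 to 126594941, minus strand), the p28 subunit of IL-27, stood at 1.56, 2.67 and 2.86 CPM in the PBS libraries and at 23.9, 33.2 and 32.0 CPM in the WGP libraries. The groups did not overlap, and within each the highest library was at most 1.83 times the lowest. Its counts came to 1.40, 3.47 and 4.50 times the most frequent low count in the PBS libraries and to 51.9, 41.7 and 43.7 times in the WGP libraries, so the PBS level in the fold rests on few such steps. The gene rose 12.6-fold, a log2 fold change of 3.65 (SE 0.35, adjusted p = 9.2e-05 in edgeR). Leaving out each library in turn gave log2 fold changes from 3.42 to 3.81. Of its exon bases 103 (10.1%) overlap Apobr on the opposite strand, at 105 to 119 CPM in the PBS and 159 to 241 CPM in the WGP libraries, and the strand setting of the counting is not given, so reads of that stretch cannot be told apart.

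Ebi3 (ENSMUSG00000003206, chromosome 17, 55952640 to 55957022, plus strand), the partner of p28, stood at 65.8, 60.5 and 59.4 CPM in the PBS libraries and at 79.2, 73.7 and 86.0 CPM in the WGP libraries. Every WGP library lay above every PBS library, but the difference was small, with a log2 fold change of 0.36 (SE 0.15) and an adjusted p of 0.149 in edgeR. An antisense gene overlaps 23.4% of its exon bases, and how reads of that stretch were counted is not given.

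Il12a, the p35 subunit (chromosome 3, 68690644 to 68698547, plus strand), stood at 3.38, 3.31 and 0.611 CPM in the PBS libraries and at 6.81, 2.19 and 5.69 CPM in the WGP libraries. Il12b, the p40 subunit (chromosome 11, 44400063 to 44414033, plus strand), stood at 5.12, 0.975 and 0.953 CPM in the PBS libraries and at 3.64, 0 and 7.60 CPM in the WGP libraries. The 0 counts of WGP replicate 2 allow up to 0.0723 CPM by counting error (3 counts), if every count is a separate molecule. The most frequent low count of that library was 33, or 0.796 CPM, so the level could lie above that limit. Il23a, the p19 subunit (chromosome 10, 128296139 to 128298752, minus strand), stood at 2.00, 1.39 and 0.489 CPM in the PBS libraries and at 4.42, 1.35 and 1.08 CPM in the WGP libraries. The groups overlapped for all 3 genes, and no difference beyond the spread between libraries was detected. The log2 fold change was 1.01 (SE 0.84, adjusted p = 0.479) for Il12a, 0.67 (SE 1.51, adjusted p = 0.839) for Il12b and 0.82 (SE 1.19, adjusted p = 0.724) for Il23a in edgeR. Without WGP replicate 3 the value of Il12b was -0.37, and without WGP replicate 1 that of Il23a was -0.09, so neither has a settled direction.

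Il10 (ENSMUSG00000016529, chromosome 1, 131019845 to 131024974, plus strand) was the member called lower. It had the narrowest PBS group of the 10 by the ratio of the highest to the lowest library. It stood at 27.6, 27.9 and 29.3 CPM in the PBS libraries and at 1.57, 2.75 and 2.54 CPM in the WGP libraries. The groups lay far apart, and the level fell 12.3-fold, a log2 fold change of -3.62 (SE 0.33, adjusted p = 6.69e-05 in edgeR). Leaving out each library in turn gave log2 fold changes from -3.78 to -3.41. In the WGP libraries its counts came to 3.41, 3.45 and 3.47 times the most frequent low count, against 24.7, 36.2 and 46.1 times in the PBS libraries. The fall went with that of the resident macrophage genes, whose median log2 fold change was -3.23 (8 of 10 passed downwards at the adjusted p, against 6.81% of all genes), and with that of the B cell genes, and their part in it was not tested. Within the PBS group the highest library exceeded the lowest 1.06 times for Il10, 2.08 times for the summed resident macrophage genes and 6.68 times for the summed B cell genes.

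Of the receptor genes, both among the more abundant members, Il10ra passed upwards without reaching the fold change threshold and Il10rb did not pass. Il10ra (chromosome 9, 45253837 to 45269149, minus strand), the ligand-binding chain, stood at 347, 490 and 398 CPM in the PBS libraries and at 700, 563 and 643 CPM in the WGP libraries. The groups did not overlap, and the log2 fold change of 0.63 (SE 0.17) passed the adjusted p (0.0323 in edgeR) but not the fold change threshold. Its adjusted p was above 0.05 with library totals only (0.0535) and with the replicate number as a block (0.0644). The same held without PBS replicate 3 (0.0841), WGP replicate 3 (0.102) and WGP replicate 1 (0.121), and the 13 alternatives ranged from 0.00216 to 0.121. Il10rb (chromosome 16, 91406164 to 91425834, plus strand), the chain shared with receptors of IL-22 and the lambda interferons, stood at 108, 153 and 153 CPM in the PBS libraries and at 131, 129 and 135 CPM in the WGP libraries. Its WGP libraries all lay within the PBS range, with a log2 fold change of -0.06 (SE 0.16, adjusted p = 0.861 in edgeR). Of its exon bases 14.9% are shared with a readthrough gene on the same strand that held 0 counts. How reads of the shared stretch were counted is not given, so the level of Il10rb may be understated.

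**Figure D3:**
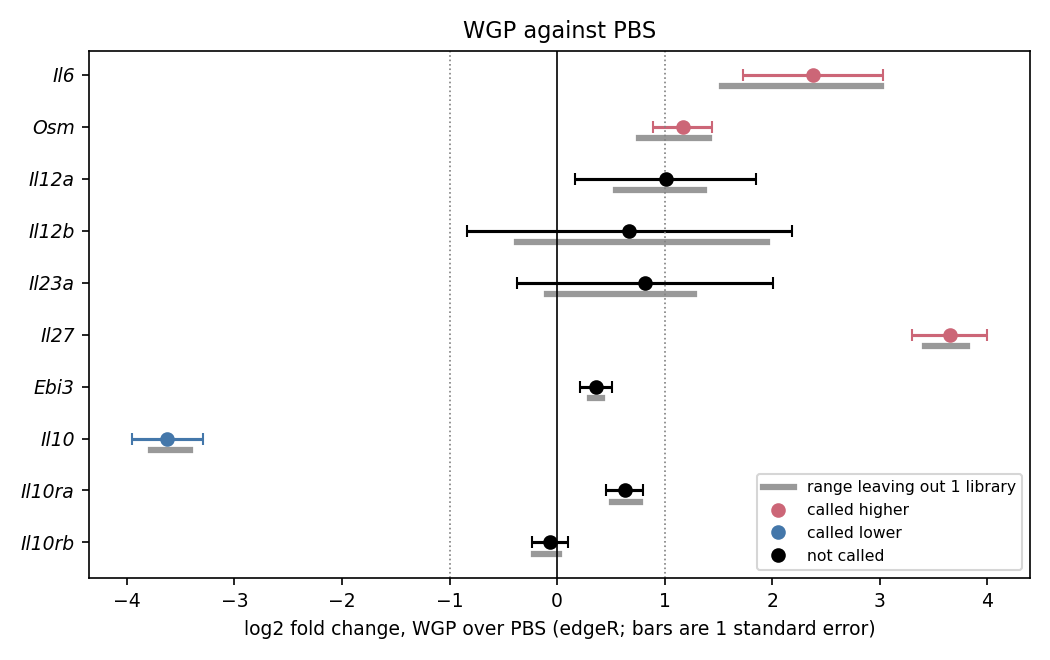
Log2 fold change of each gene, WGP over PBS, from edgeR, with bars of 1 SE (n = 3 in each group). Grey bars give the range when each library was left out in turn, and dotted lines the fold change threshold of 1. The grey bars of Il27 (3.42 to 3.81) and Il10 (-3.78 to -3.41) were short, while that of Il6 ran from 1.53 to 3.01 and those of Il12b, Il23a and Il10rb crossed 0.

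Levels of different genes were compared as CPM per kilobase of exon, which gives a level per length. Exon bases shared with another gene were not taken out. In the PBS libraries Il10ra was highest at 118 CPM per kilobase, followed by Ebi3 at 53.7, Osm at 45.3, Il10rb at 36.2 and Il10 at 21.6 CPM per kilobase. Below these came Il27, Il6, Il12a, Il12b and Il23a, at 2.31 down to 0.575 CPM per kilobase. The libraries of Osm and Il10rb overlapped in this order, as did those of each neighbouring pair from Il27 to Il23a. In the WGP libraries the order was Il10ra (182 CPM per kilobase), Osm (102), Ebi3 (69.0), Il10rb (34.6), Il27 (29.1), Il6 (8.14), Il12a (2.88), Il12b (1.90), Il10 (1.75) and Il23a (1.02). Here Osm overlapped with Ebi3, and the neighbours from Il12a to Il23a overlapped. Il10 thus went from a level per length above those of Il27, Il6 and the p35, p40 and p19 genes in every PBS library to the range of the p35, p40 and p19 genes, and Il27 came to lie next to Il10rb. With the length of the longest transcript Osm and Il10rb changed places in the PBS libraries, as did Il6 and Il12a, and the WGP order did not change.

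Ratios of a pair of members within a library do not depend on the scaling of that library. The log2 ratio of Il6 counts to Il10 counts, each with 0.5 added, was -4.31, -2.98 and -2.18 in the PBS libraries and 4.56, 1.88 and 2.21 in the WGP libraries. Il10 had more counts than Il6 in every PBS library and fewer in every WGP library, and the mean shifted by 6.04, with 5.20 without WGP replicate 1 and 6.54 without WGP replicate 2. The log2 ratio of Il27 to its partner Ebi3 was -5.39, -4.50 and -4.37 in the PBS libraries and -1.73, -1.15 and -1.42 in the WGP libraries, a shift of 3.32, and counts of Il27 stayed below those of Ebi3 throughout. The log2 ratio of Il10ra to Il10rb was 1.68, 1.68 and 1.38 in the PBS libraries and 2.42, 2.12 and 2.25 in the WGP libraries, a shift of 0.68. For these 3 ratios the groups did not overlap, and the exact two-sided permutation p was 0.1, the smallest that 3 libraries against 3 can give (0.2 adjusted over the 6 ratios compared).

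The 3 ratios that involve Il12b overlapped between the groups, and WGP replicate 2, with 0 counts of it, stood far from the other libraries. The shift was 2.37 for Il12b to Il10 (exact permutation p = 0.4, adjusted 0.6), 2.49 for Il12a to Il12b (0.5, adjusted 0.6) and 2.03 for Il23a to Il12b (0.8, adjusted 0.8). Without WGP replicate 2 these shifts were 5.44, 0.07 and -0.66, and that of Il12b to Il10 was 0.92 without WGP replicate 1 and 0.74 without WGP replicate 3.

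**Figure D4:**
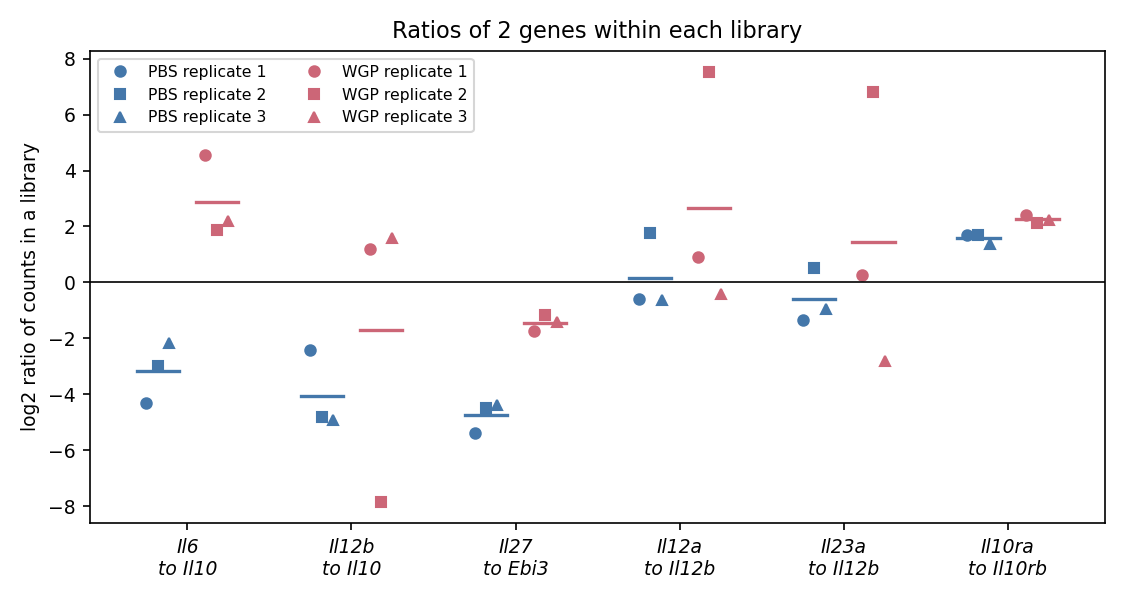
Log2 ratio of the counts of a pair of genes in each library, with 0.5 added to each count. Each symbol is a library and each line a group mean (n = 3). The groups are apart for Il6 to Il10 (shift 6.04), Il27 to Ebi3 (3.32) and Il10ra to Il10rb (0.68), and WGP replicate 2 stands far from the rest in the ratios that involve Il12b.

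Around the 10 members, 59 genes of the same pathways were listed as other ligands, other receptors, JAK kinases, STAT factors and SOCS inhibitors, regulators of transcription and of mRNA decay, and IL-10 response genes. Of these, 50 were tested. By the same rule 11 were called higher and 6 lower, against 4.53% and 4.96% of all genes tested, and by the adjusted p without the fold change 18 passed upwards and 6 downwards, against 7.54% and 6.81%, and 26 did not pass. Their median log2 fold change was 0.23, beside -0.05 over all genes tested. The lists hold overlapping roles, and Bcl3, Nfil3 and Socs3 stand on 2 of them.

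Of 12 other ligands of these families 5 were tested and none passed. Il11, Il19, Il20, Il24, Il22, Ifnl2 and Ifnl3 had 0 counts in every library. Of 15 other receptor genes 13 were tested, with 2 called higher and 1 lower. Il12rb1, the chain shared by the IL-12 and IL-23 receptors, rose from 5.88, 3.75 and 0.684 CPM to 18.2, 40.9 and 33.5 CPM, a log2 fold change of 3.17 (SE 0.65, adjusted p = 0.00801 in edgeR). Its partner in the IL-12 receptor, Il12rb2, had a log2 fold change of 0.22 (adjusted p = 0.772), and Il23r held 0 counts in 4 libraries and 18 and 47 in WGP replicates 1 and 3. Ifnlr1, which pairs with Il10rb in the receptor of lambda interferons, rose (log2 fold change 1.85, adjusted p = 0.0288), but was not called in 4 of 13 alternatives, with adjusted p values up to 0.173 without WGP replicate 3. Lifr, the LIF receptor chain that also binds oncostatin M, fell from 217, 351 and 519 CPM to 86.8, 75.2 and 82.5 CPM, a log2 fold change of -2.15 (SE 0.27, adjusted p = 0.000506 in edgeR).

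The gp130 chain Il6st was at 155, 192 and 175 CPM in the PBS libraries and at 201, 200 and 186 CPM in the WGP libraries, and its log2 fold change of 0.17 did not pass (SE 0.14, adjusted p = 0.482 in edgeR). The IL-6 binding chain Il6ra had a log2 fold change of -0.15 (SE 0.23, adjusted p = 0.742), and the IL-27 binding chain Il27ra one of -0.60 (SE 0.37, adjusted p = 0.348). Osmr, the oncostatin M receptor chain, held 84, 104 and 103 counts in the PBS libraries and 0, 368 and 0 counts in the WGP libraries. All its WGP counts came from replicate 2, the library with 1431 CPM of fibroblast genes, and the part of these in it was not tested. Osmr did not pass (adjusted p = 0.955 in edgeR), but passed as lower without that library (0.0314), where the WGP group was at 0. The highest adjusted p among the other alternatives was 0.976, and DESeq2 gave none.

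Of 7 genes of JAK kinases, STAT factors and SOCS inhibitors 2 were called higher and none lower, and 3 rose at the adjusted p. Stat3, the factor downstream of IL-6 and IL-10, rose with a log2 fold change of 0.72 (SE 0.14, adjusted p = 0.00716 in edgeR). Socs1, an inhibitor of JAK kinases, rose from 6.06, 8.65 and 0.904 CPM to 47.2, 95.8 and 58.4 CPM (log2 fold change 3.69, SE 0.65, adjusted p = 0.00354), and the kinase gene Jak2 had a log2 fold change of 1.50 (adjusted p = 0.000279). Socs3, which binds gp130 and limits IL-6 signals, had a log2 fold change of 0.30 (SE 0.15, adjusted p = 0.232), and Tyk2 one of 0.52 (adjusted p = 0.0682).

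Of 14 regulators of transcription 5 were called higher and 4 lower, and at the adjusted p 7 rose and 4 fell. Irf1, a factor known to act on Il12b and Il27, rose from 267, 212 and 149 CPM to 930, 1284 and 872 CPM, a log2 fold change of 2.30 (SE 0.24, adjusted p = 0.000153 in edgeR). Bcl3, an IκB-like protein (1.76, adjusted p = 0.000529), Cebpb, a C/EBP factor of the Il6 promoter (1.45, adjusted p = 0.000272), and Nfil3, a repressor of Il12b (1.41, adjusted p = 0.0097), rose too by their log2 fold changes. Irf8 and Irf5, which act on IL-12 genes in macrophages, passed the adjusted p with smaller log2 fold changes of 0.96 and 0.54 (adjusted p = 0.00521 and 0.0346), and that of Irf5 reached 0.135 over its alternatives. Prdm1, which encodes Blimp-1, had a log2 fold change of 1.08 (adjusted p = 0.0193) and was not called in 4 of 13 alternatives.

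The regulators that fell include factors known to act on the members. Maf, which activates Il10 in macrophages, fell from 477, 865 and 943 CPM to 250, 298 and 224 CPM, a log2 fold change of -1.56 (SE 0.24, adjusted p = 0.00179 in edgeR). Rel, the c-Rel subunit of NF-κB, had a log2 fold change of -1.70 (adjusted p = 0.000405), and Nfkbiz, the nuclear IκB protein that promotes Il6 transcription, one of -1.54 (adjusted p = 0.000755). Atf3, a stress-induced repressor of Il6 and Il12b, had a log2 fold change of -1.51 (adjusted p = 0.000344). The groups of each of these 4 genes did not overlap.

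Of 5 genes for proteins that act on cytokine mRNA none was called. Arid5a, which stabilises Il6 mRNA, and Rc3h2, which encodes Roquin-2, passed the adjusted p with log2 fold changes of 0.68 and 0.79 (adjusted p = 0.0181 and 0.0093 in edgeR). The adjusted p of Arid5a reached 0.0829 over its alternatives. Zfp36, which encodes tristetraprolin and binds the AU-rich heptamer, was at 3954, 4867 and 5114 CPM in the PBS libraries and at 3972, 3131 and 3926 CPM in the WGP libraries, with a log2 fold change of -0.34 (SE 0.17, adjusted p = 0.254). Zc3h12a, which encodes the RNase Regnase-1, had a log2 fold change of -0.46 (SE 0.18, adjusted p = 0.124).

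Of 9 genes known to respond to IL-10 in macrophages 4 were called higher and 1 lower, and at the adjusted p 6 rose and 1 fell, while Il10 itself fell. Il1rn, the IL-1 receptor antagonist, which many other stimuli induce as well, rose from 37.3, 44.2 and 27.3 CPM to 806, 658 and 524 CPM, a log2 fold change of 4.19 (SE 0.24, adjusted p = 6.4e-06 in edgeR). Tnip3 (1.62, adjusted p = 0.0139), Sbno2 (0.86, adjusted p = 0.00356) and Il4ra (0.67, adjusted p = 0.0272) rose by smaller log2 fold changes, beside Bcl3 and Nfil3 given above. The adjusted p of Tnip3 reached 0.0533 and that of Il4ra 0.0855 over their alternatives. Etv3, a repressor, had a log2 fold change of -1.07 (adjusted p = 0.00146), which was -0.98 without WGP replicate 3, short of the fold change threshold. The median log2 fold change of the list was 0.86.

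**Figure D5:**
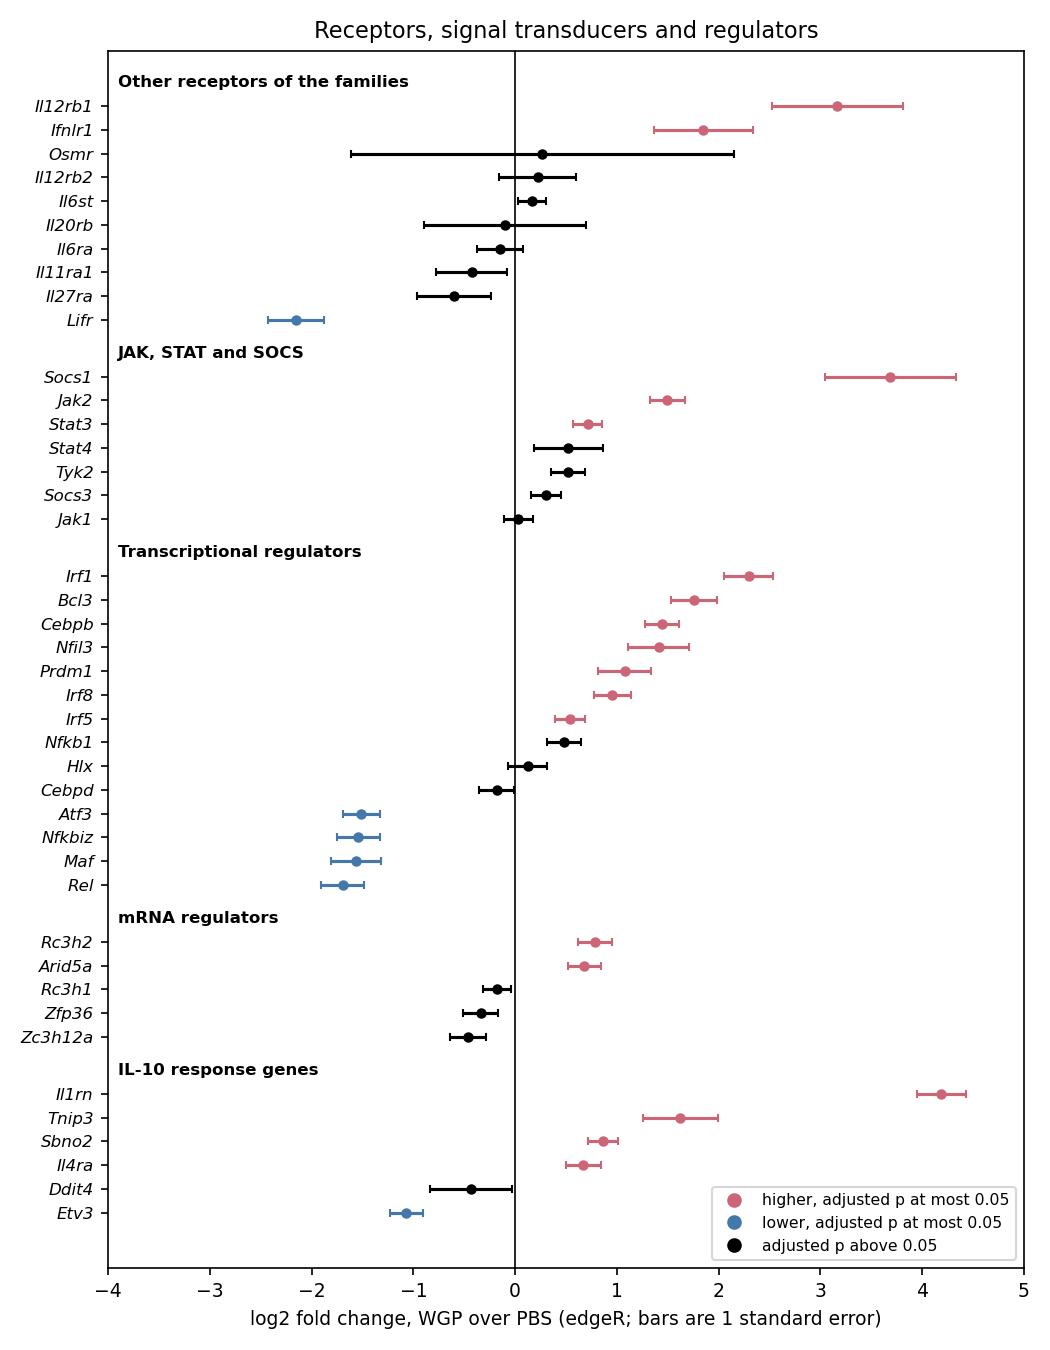
Log2 fold change, WGP over PBS, of other genes of the pathways from edgeR, with bars of 1 SE (n = 3 in each group). Red marks a rise and blue a fall at an adjusted p of at most 0.05, and black a gene that did not pass. Genes on several lists are drawn under the first, and genes with few counts are left out. The values run from -2.15 for Lifr to 4.19 for Il1rn.

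The genes whose levels followed those of Il6, Il27 and Il10 most closely over the 6 libraries were found by Pearson's r of log2 CPM among 11671 genes. For Il6 they were Bloc1s6 (r = 0.993), Ndufv1 (0.990) and Mmgt2 (0.987). Mocs1, Scimp and Tbc1d10b followed Il27 (r from 0.997 to 0.999), and Scaf8, Cpne8 and Cmah followed Il10 (0.998 to 0.999). An r of at least 0.95 was reached by 43 genes for Il6, 587 for Il27 and 313 for Il10. The 6 points fall into 2 treatments, so the difference between the groups enters every r, and these values are a description. Cmah stood at 235 ± 14.9 CPM in the PBS and 24.1 ± 5.63 CPM in the WGP libraries (SD, n = 3), and Cpne8 at 27.2 ± 3.70 and 1.66 ± 0.594 CPM.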

How the data were processed

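CD45+CD11b+ cells sorted from mouse pancreas were sequenced as 3 PBS and 3 WGP poly-A libraries. The authors aligned the reads to mm10 (GRCm38.p6) with STAR 2.6 and deposited the raw counts that HTSeq 0.10.0 gave for each Ensembl gene. The annotation release, the strand setting and the handling of duplicate reads are not given in the sources used here. The 21700 genes that are protein-coding in GENCODE vM21 were used. Library totals were between 35334645 and 43341834 counts.

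Counts were tested in R 4.3.3 with edgeR 4.0.16 (quasi-likelihood test, TMM, Benjamini-Hochberg over the 14429 genes with at least 10 RLE-normalized counts over the 6 libraries), and the procedure was tested on simulated data. SEs were taken as the fold change on the log2 scale over the root of F. Alternatives used DESeq2 1.42.0 and limma 3.58.1, other scalings and filters, the replicate number as a block, the adjusted p alone and each library left out in turn. Ratios were compared with an exact two-sided permutation test with 0.5 added to each count. The 10 members and the lists of pathway and marker genes were chosen with earlier results of these data known. Named were all members, the pathway genes past the adjusted p, others of these lists with their values, and the 3 genes most like Il6, Il27 and Il10 in level over the libraries (mean of at least 1 CPM). Shares of 3′ UTRs come from 1 transcript a gene in GENCODE vM21. Floors cover counting error only. No explanation for a difference was tested. The values of 1 gene of the pathway lists are not reported here, and the counts leave it out.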

Additional observations from a re-analysis of the deposited data

How the results depend on the processing

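Of the log2 fold changes of the 10 members and 34 pathway genes named, under 13 alternatives each, 116 member values kept their direction and whether they were called by both thresholds together, 8 lost their call and 6 changed sign, and of the pathway gene values 427 kept both, 10 lost their call, 2 gained it and 3 changed sign. Among the values that kept both, the adjusted p alone crossed 0.05 in some alternatives for Il10ra, Irf5, Arid5a and Il4ra, which had passed it, and for Tyk2, which had not. Il27 and Il10 were called in all 13. The number of members called higher was 3 and lay between 1 and 3 when each library was left out, with 1 without PBS replicate 2 and 1 without WGP replicate 1. At the adjusted p alone 18 pathway genes rose, in place of 11. The values that changed sign were -1.34 (limma-voom), -0.67 (replicate block) and -0.37 (without WGP replicate 3) for Il12b, -0.091 (without WGP replicate 1) for Il23a, 0.016 (without PBS replicate 2) and 0.016 (without PBS replicate 3) for Il10rb, and -4.40 (limma-voom), -5.68 (replicate block) and -9.59 (without WGP replicate 2, which leaves Osmr at 0 in the WGP group, so that the fitted value measures no size) for Osmr. Leaving out each library gave ranges of -0.37 to 1.95 for Il12b, -0.091 to 1.28 for Il23a, -0.21 to 0.016 for Il10rb and -9.59 to 0.86 for Osmr. The shift of the log2 ratio of Il23a to Il12b lay between -0.66 and 4.15 when each library was left out, -0.66 being the value without WGP replicate 2, the library with 0 counts of Il12b. The cause was not tested for the other changes. With library totals only the log2 fold changes of all genes tested shifted by a median of -0.10.

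Deviations of libraries with the same replicate number from their group means correlated with r of 0.040, -0.088 and 0.063 over 11681 genes, so the numbers were not taken as pairs. With the replicate block 2 members were called higher, Il6 being lost, and 1 lower, and 11 pathway genes were called higher and 6 lower. With 3 libraries in a group, the SE on the log2 scale was 0.84 for Il12a, 1.51 for Il12b and 1.19 for Il23a, so differences of a few fold in these genes could go undetected.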
